A study of Mus musculus with 2 samples.

Results

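The cytosolic ribosomal protein genes were taken from the deposited tables by symbol: Rpl or Rps followed by digits and at most 1 letter, or Rplp followed by a digit, without pseudogene (-ps) and S6 kinase (Rps6k) symbols. This gave 78 of the 23521 listed genes, 48 of them with large-subunit symbols (Rpl and Rplp) and 30 with small-subunit symbols (Rps). The genes were described in sorted cells from lymphatic vessels (scLV-1 and scLV-2) that lead into the submandibular lymph nodes of FVB/N mice with the genotype Prox1-GFP, in which a fluorescent protein marks cells with an active Prox1 promoter. The adult library pooled 6 mice of 12 weeks and the aged library 6 mice of 93 weeks, both sorted with a gate that the labels do not give and profiled by droplet 3′ sequencing with unique molecular identifiers (UMIs). Each age was 1 library and its cells carry no mark of their mouse, so no test between ages was possible and all values describe these 2 libraries. Intervals are exact 95% intervals that cover counting error only.

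A cytosolic ribosome has a small subunit, which reads the messenger RNA, and a large subunit, which joins the amino acids. Its proteins are made in matched amounts, and their messages are among the most abundant of a cell. Most of these messages start with a run of C and T bases, the 5′ TOP motif, through which mTORC1 and the binding protein Larp1 control their translation. Members with special roles here are the stalk proteins Rplp0, Rplp1 and Rplp2, which recruit elongation factors, Rps6, the substrate of the S6 kinases, and Rps27a, which is made as a fusion with ubiquitin. Rps27l, a p53 target, Rpl39l and Rpl3l are paralogues of Rps27, Rpl39 and Rpl3, and Rps4x is encoded on the X chromosome.

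To look for start-site features, which the symbol rule did not use, the annotated starts were read from RefSeq (GRCm38.p6). Promoters, from 250 bases before to 50 bases after an annotated start, were found for 58 of the 78 members (70 promoters). Within 20 bases on either side of the start, an unbroken run of 8 or more C or T bases lay in 30 of the 70 promoters (42.9%), against 16.0% of all 32851 promoters in the table. The median longest run was 7 bases in the members and 5 bases in all promoters. The hexamer CGGAAG on either strand, the core bound by ETS factors, was in 61.4% of the member promoters and 16.9% of all promoters. AAGATGGC on either strand, which holds the core bound by YY1, was in 10% and 2.75%, and CTTTCC on the sense strand in 38.6% and 14.1%. TATAA on the sense strand was in 21.4% and 17.5%. CTTTCC is itself made of C and T, and CTTCCG, the other strand of CGGAAG, begins with such bases, so these features overlap with the run. These are matches of letters, and an annotated start need not be the start used in these cells.

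Windows of 40 bases before to 20 bases after the annotated start are shown for the members that the results turn on, 5′ to 3′ on the gene's strand, with the longest run of C or T within 20 bases of the start in capitals. They are Rps27 (chr3:90213629-90213688, minus strand), its paralogue Rps27l (the upstream one of 2 listed starts, chr9:66946046-66946105, plus strand), Rpl39 (chrX:37085203-37085262, minus strand), its paralogue Rpl39l (chr16:10170188-10170247, plus strand), Rps6 (chr4:86857348-86857407, minus strand), Rpl5 (chr5:107900488-107900547, plus strand), Rpl7a (chr2:26910767-26910826, plus strand) and Rps2 (chr17:24720023-24720082, plus strand). Each window spans the promoter and the beginning of the first exon.
Rps27: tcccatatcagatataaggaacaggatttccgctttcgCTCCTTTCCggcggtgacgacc
Rps27l: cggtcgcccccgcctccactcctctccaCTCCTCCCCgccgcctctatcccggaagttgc
Rpl39: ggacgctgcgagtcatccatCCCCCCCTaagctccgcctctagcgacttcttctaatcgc
Rpl39l: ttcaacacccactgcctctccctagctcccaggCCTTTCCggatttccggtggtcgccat
Rps6: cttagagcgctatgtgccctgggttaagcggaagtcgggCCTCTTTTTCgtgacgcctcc
Rpl5: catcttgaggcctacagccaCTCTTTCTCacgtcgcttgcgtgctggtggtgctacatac
Rpl7a: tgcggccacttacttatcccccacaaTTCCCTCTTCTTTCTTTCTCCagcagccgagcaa
Rps2: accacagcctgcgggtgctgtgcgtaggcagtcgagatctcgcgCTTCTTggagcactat

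The adult table held 7308 cells and the aged one 13969 cells, of which 6977 carried barcodes that were also in the adult table and were left out. In these shared cells the members took 15.02% of the UMIs in the adult and 14.96% in the aged table. The 6992 remaining aged cells had a median of 11664 UMIs per cell and the adult cells 12088. Cells were clustered without the members and other housekeeping or sex-linked genes, and classes were named from markers: lymphatic endothelial-like (Prox1 at 14434 adult and 14019 aged UMIs per 1000000 UMIs of the class, CPM), blood endothelial-like (Vwf at 1738 and 1834 CPM), smooth muscle-like (Myh11 at 3877 and 4661 CPM), pericyte-like (Rgs5 at 1914 and 3344 CPM) and fibroblast-like (Pdgfra at 350.2 and 329 CPM). Prox1 also reached 1428 and 1553 CPM in the blood endothelial-like class. Many members have processed pseudogenes or near-identical copies (Rps27 and Rps27rt, Rpl36a and Rpl36al, Rps18 and its pseudogenes), and how the authors' counting divided such reads is not given, so single-member values are uncertain to that extent. Levels are UMIs of 3′ ends and are compared for 1 gene or 1 summed set between cells, not between genes.

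The summed level of the members, as a percentage of all UMIs of a class, differed between classes and was lower in the aged library in both endothelial classes. Fibroblast-like cells had the highest level, 15.3% in the adult library (6041 cells) and 14.7% in the aged one (6206 cells). Blood endothelial-like cells held 14.3% (622 cells) and 10.9% (413 cells), which is -0.38 (-0.39 to -0.38) as log2 of aged over adult. Lymphatic endothelial-like cells held 11.8% (279 cells) and 9.84% (97 cells), or -0.26 (-0.28 to -0.25) on that scale. Pericyte-like cells held 9.87% (63 cells) and 9.59% (38 cells), and smooth muscle-like cells had the lowest level, 7.92% (238 cells) and 8.001% (188 cells), with intervals of 7.88 to 7.96% and 7.95 to 8.05%. The order of the classes was the same at both ages, but aged lymphatic endothelial-like and pericyte-like cells were close to each other, with intervals of 9.76 to 9.92% and 9.46 to 9.73%.

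Per cell, the median level of blood endothelial-like cells was 14.1% in the adult library (quartiles 10.6 and 17.1%) and 10.4% in the aged one (8.04 and 13.1%). In lymphatic endothelial-like cells the medians were 11.6% (8.56 and 13.9%) and 8.59% (6.94 and 11.8%). The ranges between the quartiles therefore overlapped between the ages in both classes, and the aged median lay near the lower adult quartile. In smooth muscle-like cells the medians were 7.69% and 7.68%.

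**Figure D1:**
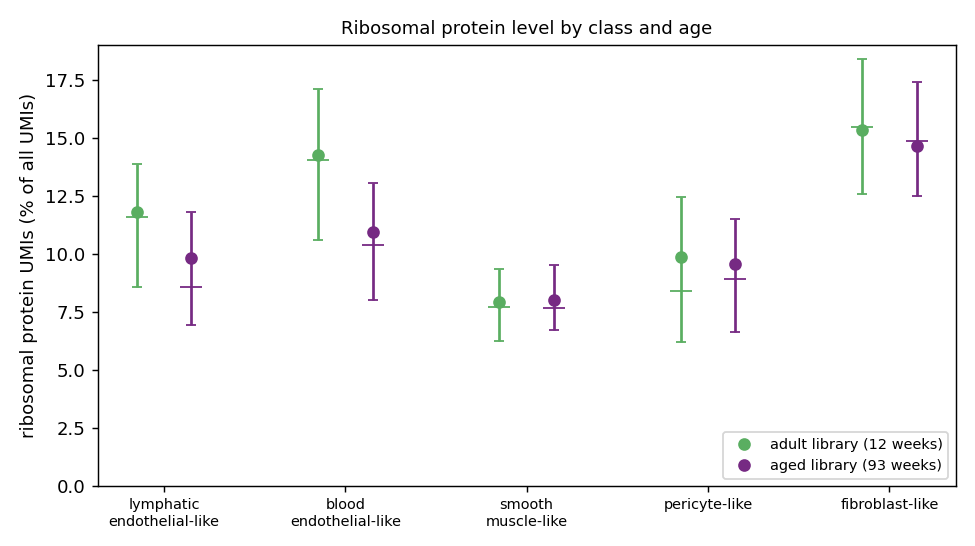
Level of the 78 ribosomal protein genes as a percentage of all UMIs (vertical axis) in the 5 classes at both ages; dots are the pooled level of the class, dashes and bars the median and quartiles over cells. The dots of both endothelial classes are lower in the aged library (9.84 against 11.8% and 10.9 against 14.3%), and those of smooth muscle-like cells lie side by side (8.001 and 7.92%).

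The endothelial difference was present among cells called female, among cells called male and in each depth range that was looked at. Among cells of either sex, called by Xist and Y-linked UMIs, the log2 ratio of the lymphatic endothelial-like class was -0.37 in females (141 adult and 43 aged cells) and -0.34 in males (97 and 38 cells). Both lay below the ratio of the whole class (-0.26). The class also holds cells called for neither sex, whose ratio was not computed, so the values by sex do not speak for them. In the blood endothelial-like class the log2 ratio was -0.35 in females (277 and 162 cells) and -0.42 in males (230 and 166 cells). Among cells of 5000 to 10000 UMIs, lymphatic endothelial-like cells held 12.1% in the adult and 10.5% in the aged library, and blood endothelial-like cells 14.5% and 11.2%. Below 5000 UMIs the levels were 10.97% and 8.40% in the lymphatic and 11.7% and 9.71% in the blood class. Over all lymphatic and blood endothelial-like cells with 5000 UMIs or more, the log2 ratios were -0.20 and -0.37.

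Other values moved with age in the same classes. Malat1, a nuclear long RNA, was at 23918 CPM in adult and 33421 CPM in aged lymphatic endothelial-like cells, and at 14124 and 21441 CPM in blood endothelial-like cells. It also differed in pericyte-like cells (25018 and 34796 CPM), where the members took 9.87 and 9.59%. In smooth muscle-like cells Malat1 was at 23435 and 17595 CPM, and in fibroblast-like cells at 11196 and 11042 CPM. The 10 fibroblast markers, each with a UMI in both libraries, summed to 290 and 587 CPM in the lymphatic class and to 430.0 and 481 CPM in the blood class, against 28018 and 34949 CPM in fibroblast-like cells. The 4 haemoglobin genes summed to 1551 CPM in adult and 12.7 CPM in aged blood endothelial-like cells. Mitochondrially encoded genes took 3.46 and 3.94% of the lymphatic and 3.53 and 3.49% of the blood endothelial-like UMIs, and median UMIs per cell were 5985 and 5478, and 7533 and 6310. The part of these values in the lower ribosomal protein level was not tested.

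In single genes the difference was small and shared by nearly all members. A member was measured where at least 10% of the cells of a class in 1 library had a UMI and both libraries held 50 UMIs or more together, which 76 members did in every class and 77 in fibroblast-like cells. Ratios were taken as log2 of aged over adult CPM after adding 1 CPM to each. In blood endothelial-like cells 76 of 76 measured members were below 0, where 46.1% of the 7206 measured genes were, with a median of -0.39 in the members and 0.03 in all genes. In lymphatic endothelial-like cells 75 of 76 were below 0, against 46.2% of the 6100 measured genes, with medians of -0.26 and 0.04. No member passed 1.5-fold in either endothelial class. Of all measured genes 4.48% passed it upward and 5.01% downward in the blood class, and 7.66% and 9.34% in the lymphatic class. At 1.2-fold 64 of 76 members were lower in the blood class (18.4% of all genes) and 36 of 76 in the lymphatic class (23% of all genes). None was higher by 1.2-fold, where 21.4 and 27.6% of all genes were.

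The direction repeated inside the classes. In blood endothelial-like cells 76 of 76 members were below 0 in both sexes (30% of all genes) and 61 of 76 were below 0 in each of its 4 clusters (8.85% of all genes). In lymphatic endothelial-like cells the counts were 74 of 76 in both sexes (26.4% of all genes) and 62 of 76 in each of its 3 clusters (14.5% of all genes). Both subunits took part: the median of the blood class was -0.40 in 43 large-subunit and -0.37 in 30 small-subunit members, and in the lymphatic class -0.27 and -0.25.

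**Figure D2:**
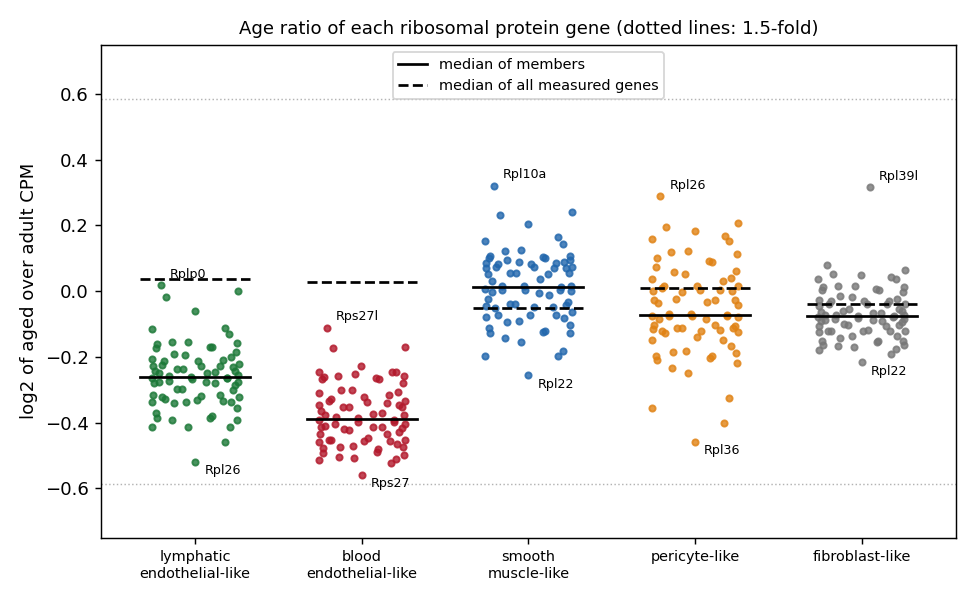
Log2 ratio of aged over adult CPM (vertical axis) for each measured ribosomal protein gene in the 5 classes; each dot is 1 gene, solid lines are the medians of the members and dashed lines those of all measured genes. The members of the blood and lymphatic endothelial-like classes lie below the dashed line with medians of -0.39 and -0.26, while those of the other 3 classes lie around it; no dot passes 1.5-fold.

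In the blood endothelial-like class the lowest member was Rps27, a small-subunit protein, at 1574 adult and 1069 aged CPM (log2 ratio -0.56, -0.62 to -0.50). Rpl12, a protein at the base of the stalk, followed with 1975 and 1375 CPM (-0.52, -0.58 to -0.47). Rpl5, which binds 5S rRNA, was at 1556 and 1090 CPM (-0.51, -0.58 to -0.45). Rps19, the protein most often mutated in Diamond-Blackfan anaemia, and Rps21 of the small subunit had ratios of -0.51 each. At the other end Rps27l was at 175 and 162 CPM (-0.11, -0.28 to 0.06), so its interval reached 0 while that of its paralogue Rps27 did not. Rpl7a stood at 728 and 647 CPM (-0.17), Rpl41, the shortest ribosomal protein, at 1800 and 1598 CPM (-0.17), Rplp1 at 4020 and 3434 CPM (-0.23) and Rps26 at 746 and 630 CPM (-0.24).

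In the lymphatic endothelial-like class Rpl26 was the lowest, at 828 and 578 CPM (-0.52, -0.70 to -0.34). Rpl13a had 1983 and 1442 CPM (-0.46, -0.57 to -0.35), and Rps24, Rps28 and Rpl17 had log2 ratios of -0.41 each. The highest were Rplp0 at 1114 and 1128 CPM (0.02, -0.12 to 0.15), Rpl27 at 684.4 and 684.3 CPM and Rpl15 at 1372 and 1354 CPM (-0.02, -0.14 to 0.10), followed by Rpl10a (-0.06) and Rpl7a (-0.11). Counting error was wider here, with 314 (Rpl26) to 1409 (Rps24) aged UMIs behind these values.

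The members with special roles mostly followed the set in endothelium. Rps6 was at 1723 CPM in adult and 1215 CPM in aged blood endothelial-like cells (-0.50, -0.56 to -0.44), and at 1296 and 1072 CPM in the lymphatic class (-0.27, -0.41 to -0.14). Rps27a was at 2613 and 2045 CPM (-0.35) and at 2148 and 1891 CPM (-0.18). Of the stalk proteins, Rplp2 had log2 ratios of -0.41 in the blood and -0.23 in the lymphatic class and Rplp1 -0.23 and -0.26, while Rplp0 had -0.26 and 0.02. Rps4x had -0.34 and -0.16. As a share of all ribosomal protein UMIs, Rplp0 therefore went from 0.944 to 1.15% in lymphatic endothelial-like cells (log2 0.28, 0.15 to 0.41), and Rps27l from 0.123 to 0.148% in the blood class (0.27, 0.10 to 0.44).

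In endothelium, members with and without a long run of C or T bases had like age ratios. In blood endothelial-like cells the median log2 ratio was -0.39 for the 29 measured members with a run of 8 or more (Rps27, Rps6 and Rpl7a among them) and -0.40 for the 27 with a shorter one (Rpl39l was not measured there). The medians in the lymphatic class were -0.26 and -0.28. They were -0.07 and -0.08 in fibroblast-like, -0.08 and -0.07 in pericyte-like, and 0.05 and -0.04 in smooth muscle-like cells, on either side of 0 in the last. Rps27, the lowest in the blood class, and Rps27l, the highest, both had a run of 9 bases in the windows printed earlier.

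In the other classes the age ratios lay around 0. In smooth muscle-like cells 43 members were above 0 and 33 below it (44.2 and 55.8% of the 6746 measured genes), with a median of 0.01 against -0.05 in all genes. None passed 1.5-fold (5.41% of all genes higher, 13.2% lower). Rpl10a was the highest, at 706 and 883 CPM (0.32, 0.20 to 0.44) and the only one past 1.2-fold upward (20% of all genes higher), while none passed it downward (31%), followed by Rpl41 (0.24), Rpl18 (0.23), Rplp2 (0.20) and Rps2 (0.16). Rpl22 was the lowest, at 531 and 445 CPM (-0.25, -0.42 to -0.10), followed by Rpl10 (-0.20), Rps20 (-0.20), Rpl5 (-0.18) and Rpl39 (-0.16). In pericyte-like cells, with only 63 and 38 cells, 28 were above and 48 below 0 (50.5 and 49.5% of 2505 genes), from Rpl36 (-0.46, -0.78 to -0.15), Rps10 (-0.40), Rpl38 (-0.35), Rpl32 (-0.32) and Rpl28 (-0.25) to Rplp1 (0.17), Rpl7 (0.19), Rpl3 (0.21) and Rpl26 (0.29). There, too, no member passed 1.5-fold (10.1% of all genes higher, 14.6% lower), and 1 was higher and 4 lower by 1.2-fold (27.2 and 28.9% of all genes).

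In fibroblast-like cells, the largest class, 62 of 77 members were below 0 and 15 above (58.1 and 41.9% of the 8727 measured genes), with a median of -0.08 against -0.04 in all genes. No member passed 1.5-fold (1.79% of all genes higher, 3.66% lower). Rpl22, which has a paralogue, Rpl22l1, outside the rule, was the lowest as in smooth muscle-like cells, at 1064 and 915 CPM (-0.22, -0.23 to -0.20). Rpl10 (-0.19), Rpl39 (-0.18), Rpl35a (-0.18) and Rps27 (-0.17) followed. Among the highest were Rpl8 (0.08), Rpl41 (0.06) and Rplp0 (0.05) and, above them, Rpl39l, at 21.3 and 26.8 CPM (0.32, 0.24 to 0.42), the only one past 1.2-fold upward (8.22% of all genes higher), with none past it downward (17.1%). Rps6 had -0.10, Rps27a 0.02, Rps27l 0.01, Rps4x 0.01, Rplp1 -0.02 and Rplp2 -0.07. All of these lay closer to 0 than in blood endothelial-like cells.

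The level was slightly higher in female than in male fibroblast-like cells, and the libraries held the sexes in different proportions. The members took 15.6% of the UMIs of 2959 female and 14.7% of those of 2373 male adult cells, and 15.3% in 2248 female and 14.1% in 3181 male aged cells. Of 73 autosomal members with enough UMIs the median log2 ratio of female over male CPM was 0.09 in the adult and 0.11 in the aged library, with ranges of -0.20 to 0.18 and 0.01 to 0.22. The 4 X-linked members lay within these ranges: Rps4x at 0.08 and 0.11, Rpl10 at 0.00 and 0.08, Rpl36a at 0.11 and 0.14 and Rpl39 at 0.13 and 0.22.

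The related gene lists show how far the lower endothelial values went beyond the members. Of the core ribosomal proteins whose symbols fall outside the rule (such as Rpsa, Fau, Rps3a1 and Rack1), 5 of 5 were below 0 in both endothelial classes, with medians of -0.35 in the blood and -0.17 in the lymphatic class. Of all measured genes 46.1% were below 0 in the blood and 46.2% in the lymphatic class. In blood endothelial-like cells Rpsa was at 1815 and 1357 CPM (-0.42) and Fau at 2635 and 1974 CPM (-0.42), with Rack1 at -0.27 and Rps3a1 at -0.35. In the lymphatic class 1 of the 5 passed 1.5-fold downward, where 9.34% of all genes did, and Fau had -0.31 and Rpsa -0.10. Elongation and associated factors, whose messages are also of the TOP kind, were below 0 in 12 of 12 in the blood class (46.1% of all genes, median -0.30). In the lymphatic class 10 of 12 were (46.2% of all genes, median -0.16). Among them Tpt1 was at 9296 and 6849 CPM in the blood class (-0.44) and Eif4b at 162 and 119 CPM (-0.45), while Hnrnpa1 (-0.04) and Nap1l1 (-0.03) were the highest.

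The snoRNA host genes had lower medians than the members in both endothelial classes, and the other lists had medians closer to 0. These hosts, spliced non-coding RNAs several of which also carry a TOP start, had medians of -0.50 in the blood class (7 of 9 below 0, 3 of 9 past 1.5-fold downward) and -0.30 in the lymphatic class (7 of 7 below 0, 2 of 7 past 1.5-fold). Of all measured genes 46.1% were below 0 and 5.01% past 1.5-fold downward in the blood class, and 46.2% and 9.34% in the lymphatic class. In the blood class Epb41l4aos (-0.85, on 98 and 29 UMIs) and Snhg5 (-0.81) were the lowest and Snhg4 (0.52) and Snhg12 (0.18) the highest. The 13 eIF3 subunits had medians of -0.09 in both classes, and the mitochondrial ribosomal proteins, made for another ribosome, -0.06 over 64 measured genes in the blood and -0.11 over 52 in the lymphatic class. Ribosome biogenesis factors had 0.06 over 20 and -0.12 over 16 genes, the mTORC1 and S6 kinase axis 0.05 over 14 and -0.10 over 13, and RNA polymerase I and its regulators -0.13 over 8 and 0.03 over 6. p53 targets other than Rps27l had -0.20 over 9 and 0.04 over 9, with Btg2 at 785 and 347 CPM in the blood class (-1.17) and Cdkn1a at 590 and 674 CPM (0.19).

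In fibroblast-like cells, where the members had a median of -0.08, the list farthest above 0 was ribosome biogenesis. Its factors were above 0 in 24 of 25 (41.9% of all genes), with a median of 0.28, and 1 passed 1.5-fold upward (1.79% of all genes). Gnl3, a nucleolar GTPase, was at 72.8 and 113 CPM (0.63, 0.59 to 0.68), and Rrs1, which loads Rpl5 and Rpl11 into the growing large subunit, had 14.9 and 22.6 CPM (0.57, 0.50 to 0.71). The lowest were Dkc1 (-0.06) and Nop2 (0.03). Over all fibroblast-like cells the elongation factors had a median of -0.07 and the mitochondrial ribosomal proteins -0.01. RNA polymerase I and its regulators (7 of 9 above 0) and the p53 targets (7 of 11 above 0) each had 0.03, where 41.9% of all genes were above 0.

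**Figure D3:**
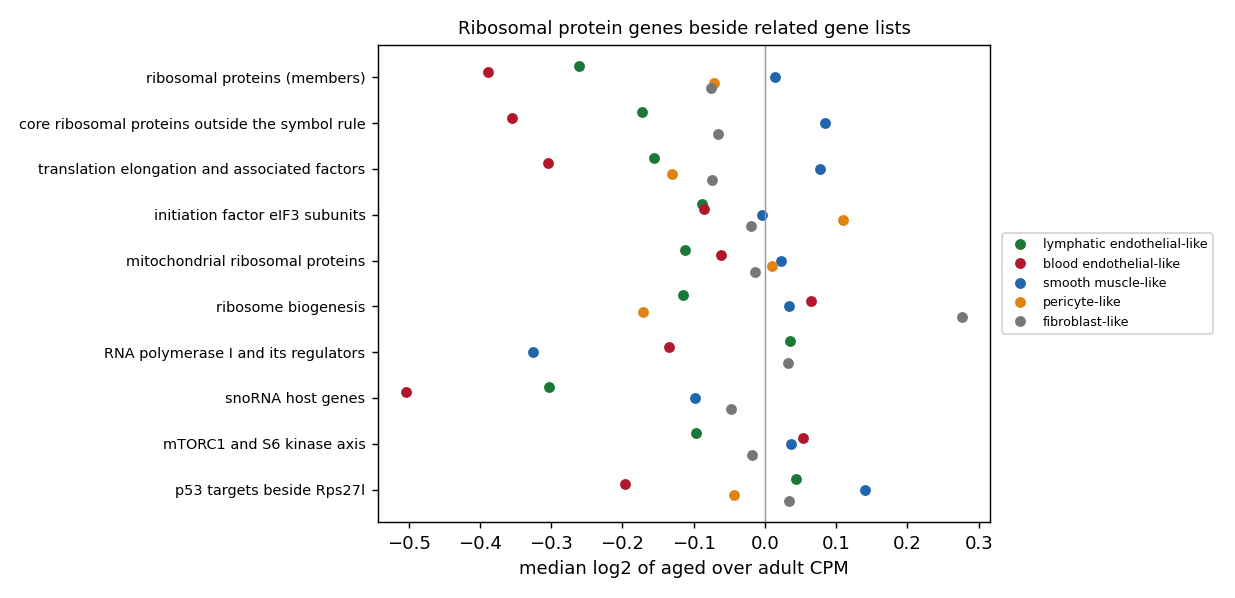
Median log2 ratio of aged over adult CPM (horizontal axis) of the ribosomal protein genes and of 9 related lists (rows) in the 5 classes; each dot is the median over the measured genes of a list in 1 class, shown where 5 or more were measured. Blood endothelial-like dots lie farthest left for the members (-0.39), the core proteins outside the rule (-0.35), the elongation factors (-0.30) and the snoRNA hosts (-0.50), and the fibroblast-like dot lies right for ribosome biogenesis (0.28).

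Between classes the members moved as a block with a few exceptions. Each class was set against the mean of the other 4 in each library by itself, and a member was counted where both libraries passed 1.5-fold the same way. In smooth muscle-like cells 29 of 77 measured members were lower (21.7% of the 9846 measured genes) and 0 higher (11.8%), and in fibroblast-like cells 15 of 77 were higher (12.9%) and 0 lower (24.8%). In pericyte-like cells none passed in either direction (9.39% of all genes higher, 17% lower). In each endothelial class 1 was lower (20.2% of all genes in the lymphatic, 21.8% in the blood class) and none higher (11.2 and 10.9%). That 1 was Rpl39l, which entered these contrasts only because it was measured in fibroblast-like cells. Its calls, lower in endothelium on 2 to 15 UMIs and 1 of the 15 higher in fibroblast-like cells, were therefore fixed by the filter, and nothing is read from them. At 1.2-fold the counts were 63 lower in smooth muscle-like (33.1% of all genes), 66 higher in fibroblast-like (20.3%), 21 lower in pericyte-like (25.6%), 6 lower in lymphatic endothelial-like (28.3%), and 4 higher and 1 lower in blood endothelial-like cells (18.8 and 33.3%), Rpl39l again included. None went the other way in the other 4 classes, where 20.2, 39.8, 17.8 and 21.8% of all genes did. When cells were chosen by marker UMIs in place of clusters, 27 were higher in fibroblast-like cells (13.5% of all genes) in place of 15. In smooth muscle-like cells 26 were then lower (23.3% of all genes) in place of 29. These counts run over all 77 measured members, Rpl39l among them.

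The lowest members of smooth muscle-like cells were Rps28, at 595 adult and 559.6 aged CPM against 1218 and 1037 CPM in the mean of the other classes (log2 -1.03 and -0.89), Rps20 (-0.96 and -0.90) and Rps12 (-0.98 and -0.88). Rps27l (0.10 and 0.23), Rps2 (0.01 and 0.31) and Rplp2 (-0.35 and 0.03) were the highest. As a share of ribosomal protein UMIs, Rps2 (0.68 and 0.82) and Rps27l (0.74 and 0.69) were the 2 of 77 members higher by 1.5-fold in smooth muscle-like cells. On that scale 28.9% of the 9846 measured genes were higher there. Rplp2 followed (0.35 and 0.50). Rps2 is a small-subunit protein near the entry of the message.

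In fibroblast-like cells Rps4x was at 3611 and 3645 CPM against 1861 and 1640 CPM in the mean of the other classes (0.96 and 1.15), and Rplp0 at 2168 and 2244 CPM against 1199 and 1150 CPM (0.85 and 0.96). Rpl39l (1.56 and 1.60) passed the filter only through this class, so it is not ranked here or in the other classes. The lowest were Rps27l (0.00 and 0.13), Rps14 (0.03 and 0.17) and Rplp2 (0.09 and 0.14). In blood endothelial-like cells Rps14, which lines the path of the message, was the highest (0.76 and 0.49), followed by Rps27 (0.64 and 0.28) and Rpl31 (0.64 and 0.25). Rpl10a (-0.08 and -0.41) and Rps27l (-0.20 and -0.23) were lowest, with Rpl39l (-1.56 and -1.23) left out. In lymphatic endothelial-like cells the range without Rpl39l was narrow, from Rps2 (-0.41 and -0.54) and Rplp0 (-0.39 and -0.34) to Rps21 (0.33 and 0.20) and Rps3 (0.33 and 0.22). In pericyte-like cells it ran from Rps12 (-0.67 and -0.57), Rpl35 (-0.54 and -0.50) and Rps14 (-0.54 and -0.46) to Rps27l (0.07 and 0.04) and Rpl3 (-0.11 and 0.27), again without Rpl39l (0.15 and 0.48).

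**Figure D4:**
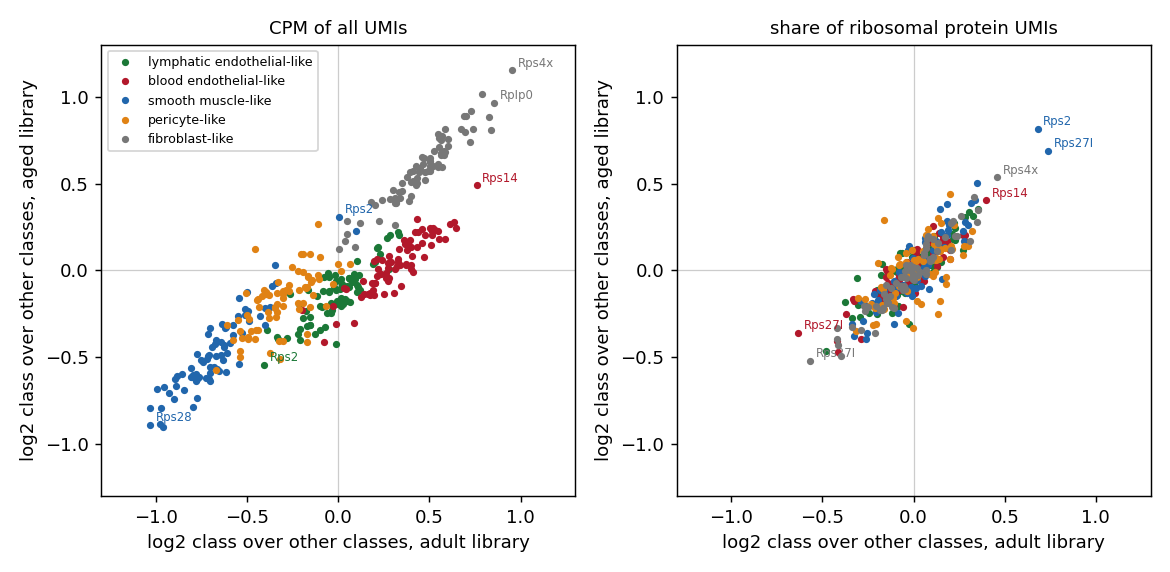
Log2 ratio of each class over the mean of the other 4 in the adult (horizontal axis) and the aged library (vertical axis); each dot is 1 ribosomal protein gene in 1 class, as CPM on the left and as a share of ribosomal protein UMIs on the right, without Rpl39l. On the left the smooth muscle-like dots lie low (Rps28 at -1.03 and -0.89) and the fibroblast-like dots high (Rps4x at 0.96 and 1.15), and on the right most dots gather near 0 while Rps2 and Rps27l of smooth muscle-like cells lie apart (0.68 and 0.82, 0.74 and 0.69).

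The paralogues were unevenly detected. Rps27l was measured in all 5 classes, at 162 to 209 CPM in either library, a narrower range than the summed level. Rpl39l was measured only in fibroblast-like cells, with 1736 adult and 2091 aged UMIs, at 21.3 and 26.8 CPM. Elsewhere it had 4 and 2 UMIs in lymphatic endothelial-like cells (2.29 and 3.68 CPM), 15 and 14 in blood endothelial-like cells (3.11 and 5.21 CPM), 18 and 9 in smooth muscle-like cells (10.4 and 8.11 CPM) and 5 and 3 in pericyte-like cells (10.4 and 15.7 CPM). The fibroblast markers were also at 2936 and 1793 CPM in the smooth muscle-like and at 4829 and 4212 CPM in the pericyte-like class, and their part in the Rpl39l UMIs there was not tested. Rpl3l, the striated muscle paralogue of Rpl3, was measured nowhere: it had 26 and 11 UMIs in fibroblast-like cells, 4 and 3 in blood endothelial-like cells, 2 and 0 in smooth muscle-like cells and 1 and 0 in pericyte-like cells. In lymphatic endothelial-like cells it had 0 UMIs in both libraries, which allows up to 1.71 and 5.52 CPM. The counts of 0 in aged smooth muscle-like and pericyte-like cells allow up to 2.70 and 15.7 CPM.

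Within classes the level varied by cluster. The 3 lymphatic endothelial-like clusters had log2 ratios of aged over adult between -0.34 and -0.19, and the 4 blood endothelial-like clusters between -0.44 and -0.14. In the lymphatic class, cluster 27, led by Clca3a1, Ptprt and Nts, held 13.1% in the adult library (108 cells) and 10.4% in the aged one (56 cells). Cluster 32, led by the capillary genes Ccl21a, Lyve1 and Reln, held 11.02% (99 cells) and 8.85% (19 cells), and cluster 35, led by Spp1 and Coch, 10.1% (72 cells) and 8.86% (22 cells). In the blood class, cluster 4, led by Vwf and Selp, held 14.6 and 10.7%, and cluster 25, in which Selp and Aqp1 stood beside haemoglobin genes, 16.4 and 12.5%. Cluster 29, led by the capillary genes Rbp7 and Esm1, held 11.1 and 9.45%, and cluster 37, led by the arterial genes Gja5 and Sema3g, 12.7 and 11.6%. The 2 smooth muscle-like clusters did not part from each other, at 7.83 and 8.01% and at 8.06 and 7.96%.

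Of the 27 fibroblast-like clusters, 23 had 15 or more cells at both ages, of which 16 were lower and 7 higher in the aged library. Cluster 13, led by Il1r2, Cxcl2 and Pla1a, was the highest in both libraries, at 21.4% (27 cells) and 18.8% (450 cells). Clusters 15 (Krt25, Krtdap and Dmkn) and 10 (Rxfp1, Fbln7 and Mlana) followed with 20.4 and 18.1% and with 20.3 and 18.003%. Cluster 18, led by Pcdh11x, Fhl2 and Fmod, was among the lowest with 10.8 and 11.0005%. Several of these clusters held mostly cells of 1 library, so cluster and library cannot be told apart there.

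Over the 23 adult and 25 aged fibroblast-like clusters with 15 or more cells and without cluster 30, the summed level went with that of the elongation factors (Pearson r 0.95 and 0.91) and the eIF3 subunits (0.98 and 0.93), and less with that of the mitochondrial ribosomal proteins (0.55 and 0.49) and ribosome biogenesis factors (0.30 and 0.20). It was weakly and inversely related to median UMIs per cell (-0.27 and -0.37) and had values near 0 with the mitochondrially encoded share (0.07 and -0.08). These are descriptions over clusters that share a library and a UMI total. The level was also inversely related to that of the mTORC1 and S6 kinase axis (-0.42 and -0.44) and positively to that of the snoRNA hosts (0.67 and 0.59). By the SD of the log2 share over clusters, Rps13 varied least in both libraries and took 1.25 to 1.39% of the ribosomal protein UMIs over the adult and 1.22 to 1.34% over the aged clusters. By the same SD, Rps15 varied most, from 0.648 to 1.44% and from 0.625 to 1.41%, and next Rpl23a, from 0.458 to 0.975% and from 0.437 to 0.988%.

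Cluster 30 stood far below all others. Its members took 0.933% of the UMIs in 75 adult cells and 1.11% in 54 aged cells, where the next lowest clusters were smooth muscle-like cluster 19 in the adult library (7.83%) and unnamed cluster 36 in the aged one (6.49%). The per-cell median was 0.742% in the adult and 0.694% in the aged library, and the highest cell had 6.43 and 6.16%. Members were kept here by a level over 50 CPM in the other fibroblast-like clusters, while genes were measured by detection on either side. The 76 members kept had medians of -4.09 and -3.73 on the log2 scale, with ranges of -5.50 to -2.78 and -4.46 to -3.05. The median over all measured genes was -0.05 and -0.11, and the share of genes that were lower was not counted. By the mean of both libraries Rps21 (-2.78 and -3.31), Rps15 (-3.35 and -3.19) and Rplp2 (-3.54 and -3.07) were the least reduced of the members kept. Rpl7a (-5.50 and -3.40) and Rpl39 (-4.57 and -4.28) were the most reduced of them. The cluster was led by 1500015L24Rik, Sema3e and Grm7. It had 5 of the 10 fibroblast markers in at least 50% of its cells, with Pdgfra at 236 and 216 CPM and Dcn at 1101 and 1279 CPM, against 15175 and 14832 CPM of Dcn in the class. Its median depth was 4242 and 4686 UMIs, its mitochondrially encoded share 7.07 and 6.46%, and its Malat1 level 50364 and 50595 CPM against 11196 and 11042 CPM in the class. The part of these values in the low level was not tested. Without cluster 30 the age ratio of the fibroblast-like class was -0.07, against -0.06 with it.

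**Figure D5:**
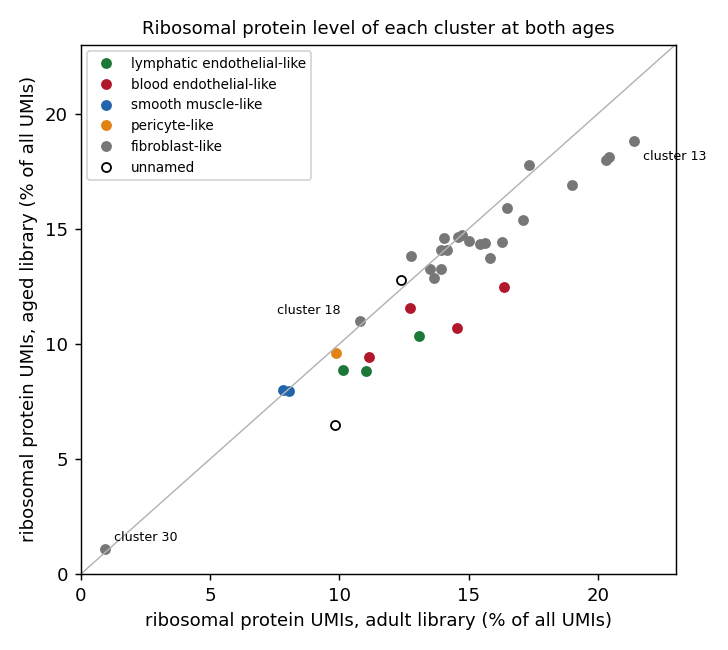
Level of the ribosomal protein genes, as a percentage of all UMIs, in the adult (horizontal axis) and the aged library (vertical axis); each dot is 1 cluster with 15 or more cells at both ages, coloured by class, and the line marks equal levels. The lymphatic and blood endothelial-like dots lie below the line, the smooth muscle-like dots on it, and cluster 30 lies near the origin at 0.933 and 1.11%.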

How the data were processed

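The deposited tables hold natural log values, made by the authors from UMIs scaled to 10000 per cell with 1 added, as the values themselves show. Per the submitters' processing notes Seurat 5.0.3 was used; the notes name the builds GRCm39 and mm10 without a role. Aligner, counting and cell filters: not given in the sources used here. Un-logged values divided by the lowest value of their cell were whole within 0.01 for 100% of values, so UMIs were recovered (90875406 adult, 83509101 in the aged cells kept). Aged rows carry no gene names and took those of the adult row order; over shared cells, 78 of 78 members matched their own row better than its neighbours. The members and gene lists were chosen with earlier results of these data known.

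Cells of both libraries were clustered together from 2000 variable genes (without ribosomal, mitochondrial, haemoglobin, sex-linked and immediate early genes), 30 principal components, 15 neighbours (scikit-learn 1.9.0) and the Leiden method at resolution 2 (igraph 0.11.9), which gave 39 clusters. A class name needed 3 of its markers in 10% of a cluster's cells, and either 2 markers among the 10 leading genes or 1 with a mean log2 marker fold of 1; it was not given where 5 fibroblast markers were in 50% of the cells. Remaining clusters with 3 fibroblast markers in 50% of cells were fibroblast-like. This held only where no other list had 3 markers in 50% of cells and no other name had been withheld for fibroblast markers. These thresholds were set after the clusters were seen, 2 clusters stayed unnamed, and the classes need not match the authors'. No doublet caller was run and no cell was removed for depth.

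UMIs were summed per class and library. Shares carry Clopper-Pearson intervals, and ratios conditional binomial intervals of Poisson sums without the added 1 CPM (scipy 1.17.1). Ratios and their intervals were run on simulated Poisson counts, the model that the intervals assume. These counts hold no variation between mice, libraries or cells, so the run checks the calculation only. Named were, in each age comparison, the 5 highest and 5 lowest members, in each class contrast the 3 highest and 3 lowest, the paralogues, Rps4x, the stalk proteins, Rps6 and Rps27a, and of lists described by gene the 2 highest and 2 lowest; Cdkn1a, Btg2 and the members named in cluster 30 and in the spread over clusters were chosen after their values were seen. Alternatives covered the cells used, depth, sex, denominators, the pseudocount, the filter and the fold. Some genes that this rule would name are not reported here.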

Additional observations from a re-analysis of the deposited data

Results flagged for a closer look

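The summed ribosomal protein level moved in opposite directions with age in different classes. The log2 ratio of aged over adult was 0.0153 in smooth muscle-like cells, and -0.262 in lymphatic endothelial-like, -0.382 in blood endothelial-like, -0.0409 in pericyte-like and -0.0640 in fibroblast-like cells. The difference between classes was not tested, since each age is 1 library, and the smooth muscle-like and pericyte-like ratios changed sign in some settings.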

How the results depend on the processing

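No paired analysis was possible because each age is 1 library, and no library can be left out for the same reason. The summed level of both endothelial classes was lower in the aged library in every setting run. In 1 setting the shared barcodes were kept, each with the class of its adult cell. Their UMIs in the aged table were a median of 0.506 of those in the adult table. Over these cells the median r of a member's own row between the tables was 0.83, and that of a neighbouring row 0.0079. The setting thus adds cells that resemble adult ones to the aged library, so its smaller ratios and medians do not tell whether the difference is weaker. With the shared barcodes included the log2 ratio was -0.090 in lymphatic and -0.198 in blood endothelial-like and -0.0435 in fibroblast-like cells. As a mean over cells it was -0.289, -0.372 and -0.048, 0.0415 in smooth muscle-like cells, and 0.0180 in pericyte-like cells, where the sign changed. In cells with 5000 or more UMIs it was -0.196, -0.372 and -0.0671, while smooth muscle-like (-0.0266) and pericyte-like cells (0.0497) changed sign. In female cells it was -0.372 in lymphatic and -0.353 in blood endothelial-like, -0.229 in pericyte-like and -0.0354 in fibroblast-like cells. In male cells it was -0.343 and -0.417 in these endothelial classes, 0.0569 in smooth muscle-like and 0.136 in pericyte-like cells, a change of sign in the last, which had 22 adult and 11 aged cells. With clusters weighted equally it was -0.287, -0.311 and -0.0772 in lymphatic, blood and fibroblast-like cells. Without mitochondrially encoded genes in the total the fibroblast-like value was -0.0676, and without cluster 30, a setting chosen after seeing the data, -0.0655.

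The median over members was -0.099 in lymphatic and -0.205 in blood endothelial-like cells with the shared barcodes, and 0.00057 and -0.0076 when each member was taken as a share of the set, which removes a change common to all. In pericyte-like cells it was -0.216 in female and 0.0985 in male cells, a change of sign. Members past the fold, 0 at 1.5-fold, were at 1.2-fold 36 lower in lymphatic and 64 lower in blood endothelial-like, 1 higher in smooth muscle-like, 1 higher and 4 lower in pericyte-like and 1 higher in fibroblast-like cells. The shares in brackets are of all genes measured in the same setting. With no filter 1 was higher in blood endothelial-like (6.83%), and 1 lower in smooth muscle-like (32.5%) and in pericyte-like cells (36.6%). The higher one was Rpl39l, on few UMIs. The lower one was Rpl3l, on 2 adult and 0 aged UMIs in smooth muscle-like and on 1 and 0 in pericyte-like cells. Nothing is read from these calls. In male cells 4 of 76 were lower in lymphatic (10.2%) and 2 of 76 in blood endothelial-like (7.34%) and 1 of 75 higher in pericyte-like cells (10.4%). In female cells 7 of 75 were lower in pericyte-like cells (14%). With clusters weighted equally 1 was lower in lymphatic endothelial-like cells (9.59%). Between classes, as a share of the set, 2 members were higher (28.9%) and 0 lower (12.2%) in smooth muscle-like cells, against 29 lower as CPM (21.7%). In fibroblast-like cells 1 was higher (7.69%), against 15 as CPM (12.9%). That 1 was Rpl39l, which is also among the 15 and whose call was fixed by the filter. With cells chosen by markers 27 were higher in fibroblast-like (13.5%) and 1 lower in pericyte-like cells (18.4%). At 1.2-fold 6 were lower in lymphatic and 4 higher in blood endothelial-like, 63 lower in smooth muscle-like, 21 lower in pericyte-like and 66 higher in fibroblast-like cells. Of 90 recomputed list medians 88 stayed within the spread of their genes; with the shared barcodes the blood endothelial-like medians were -0.215 for the core proteins and -0.137 for the elongation factors. In cells with 5000 or more UMIs the lowest cluster stood at 0.782% adult and 1.28% aged. For the values that moved, the cause was not tested unless the setting's construction gives it. Lymphatic endothelial-like and pericyte-like cells limit the precision, with 97 and 38 aged cells.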

Other observations

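A pair of clusters stayed outside the classes. Cluster 36, led by the salivary secretory genes Dcpp1, Dcpp2 and Dcpp3 and with 8 of the 10 fibroblast markers in at least 50% of its cells, held 9.83% ribosomal protein UMIs in 48 adult cells and 6.49% in 34 aged cells. Cluster 38, led by Ctnna3, Cxcl9 and Vps37b and with 10 of the 10 fibroblast markers in at least 50% of its cells, had a median of 19155 and 18476 UMIs per cell and held 12.4% in 17 and 12.8% in 16 cells.

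Some symbols next to the rule are listed here by their level in adult and aged endothelium. Intervals were not computed for them, so no direction is read from the low levels. Rpl22l1, the paralogue of Rpl22, was at 317 and 265 CPM in lymphatic and at 279.9 and 245 CPM in blood endothelial-like cells, and Rpl36al at 301 and 270.4 CPM and at 303 and 287 CPM. Rpl7l1 was at 50.8 and 53.3 CPM in lymphatic and at 48.3 and 44.3 CPM in blood endothelial-like cells, and Rpl9-ps6 at 18.3 and 23.9 CPM and at 24.3 and 18.3 CPM.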
